A study of Mus musculus with 17 samples.

Results

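The cytosolic ribosome of a mammalian cell is built from ribosomal RNA and about as many different proteins as there are ribosomal protein genes described here. Mouse genes for these proteins were chosen by symbol: protein-coding genes named Rpl or Rps with a digit, Rplp, or Rpsa, with at least 100 counts in every library. The symbols gave 85 genes, and 81 passed the count minimum, of 35896 gene IDs in all. There were 49 genes of the large subunit (Rpl) and 32 of the small subunit (Rps), on 19 chromosomes. Pseudogenes named -ps, the Rps6k kinases and Rps19bp1 were left out by the rule.

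The study sequenced mRNA of 17 cultures of murine pancreatic stellate cells, which can turn into fibroblasts. All were of genotype WT and strain C57BL/6J. All cells grew in Matrigel, a basement membrane gel, and had 4 days in 1 of 4 media. Control medium had 5 libraries, 3 of line PSC4 and 2 of line PSC5. The same medium with 20 ng/mL TGFbeta (called TGFb here) had 4 libraries, 2 of each line. Medium conditioned by tumour organoids (called CM) had 4 libraries, 2 of each line, and CM with 300 nM neratinib also had 2 of each line. Neratinib blocks kinases of the ERBB receptor family. The labels give passages 23, 24 and 25 for PSC4 replicates 1, 2 and 3, and passages 27 and 28 for PSC5 replicates 1 and 2. Libraries with the same line and number in different media therefore carry the same passage. No label says that replicates came from separate animals, so the p-values measure the spread between passages of these 2 lines. In the CM and neratinib groups the replicate 1 media carry the code T8 and the replicate 2 media T6, codes that the labels do not explain.

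Ribosomal protein mRNAs are among the most abundant of a growing cell, and their proteins join the ribosome in near equal numbers. Most of these mRNAs begin with a C followed by a run of pyrimidines, the 5′ terminal oligopyrimidine (TOP) motif, through which mTORC1 and Larp1 act on their translation and stability. Free Rpl5 and Rpl11, bound to 5S ribosomal RNA, can also bind Mdm2, which restrains p53.

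Library totals lay between 22168960 and 29421451 counts, and the neratinib libraries (22168960 to 25967718) lay below all CM libraries (26716133 to 29421451). The share of counts from transcripts of the mitochondrial genome was 1.78 to 1.98% in CM and 2.14 to 2.41% with neratinib. Summed over 10 stellate and fibroblast genes, the libraries held 5447 to 6979 CPM in control, 9907 to 20443 in TGFb, 5609 to 6754 in CM and 4075 to 6779 with neratinib. CPM here means counts scaled to a common library size after edgeR's TMM correction. Of 12 epithelial markers, 2 were at 0 in all control libraries, Esrp1 among them, and the list's sum was 15.8 to 23.6 CPM in control, 20.4 to 179 in CM and 9.75 to 322 with neratinib. By the members' median log2 difference from the control mean, control PSC4 replicate 1 (0.13) lay with PSC5 (0.16 and 0.13). The other PSC4 control libraries stood at -0.20 and -0.21. In CM, PSC4 replicate 1 (0.03) lay nearer to PSC5 (0.05 and 0.11) than to PSC4 replicate 2 (-0.07). With neratinib the libraries did not split this way: PSC4 stood at 0.58 and 0.24 and PSC5 at 0.20 and 0.62. Rpl22l1 in control medium, for example, measured 44.2 CPM in PSC4 replicate 1, 28.2 and 28.1 in the other PSC4 libraries and 40.3 and 45.5 in PSC5. With neratinib it measured 31.8 and 28.4 CPM in PSC4 replicates 1 and 2 and 35.7 and 45.3 in PSC5. The labels were kept as given.

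Another 4 genes matched the symbol rule but not the count minimum. Rpl39l had 0 counts in every library, which allows at most 3 counts, between 0.102 and 0.135 CPM by library. Rpl3l and Rpl10l had at most 2 counts in any library, and these are genes known from muscle and from testis. Rps27 came closest to the minimum with 54 to 410 counts, and the lowest member above it was Rpl22l1 with 646 to 1283. Rps27 shares its coding sequence with Rps27rt, a copy with a single exon (chr9:114982366-114982739, minus strand, GRCm38) that the annotation calls protein-coding. Rps27rt averaged 5328 counts per library against 129 for Rps27 (chr3:90212522-90213651, minus strand). The first 60 bases of the coding sequences show how alike the pair is, with the paralog Rps27l (chr9:66946086-66949516, plus strand) for contrast. Capitals mark bases that differ from Rps27.

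Rps27: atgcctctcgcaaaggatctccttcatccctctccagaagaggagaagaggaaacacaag
Rps27rt: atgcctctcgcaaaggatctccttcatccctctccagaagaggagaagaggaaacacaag
Rps27l: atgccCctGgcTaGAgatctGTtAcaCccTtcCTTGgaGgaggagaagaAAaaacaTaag

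Rps27 and Rps27rt differed at 0 of the 252 coding bases, while Rps27l differed from Rps27 at 18 of the 60 shown. Values of Rps27rt are therefore those of a pair whose reads could have been divided between both copies in the authors' counting.

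Such copies were common. A search for other annotated genes whose transcripts match at least 80% of a member's coding sequence at 90% identity or more found 951 copies, 773 of them with counts. In 25 of the 81 members over 10% of the family's counts lay in such copies, and in 7 members over 50%. The shares were 92.6% for Rpl12, 91.2% for Rpl5, 85.5% for Rpl10, 60.9% for Rpl27a, 56.8% for Rps23, 53.2% for Rpl35 and 51.6% for Rpl27. The main copies were Gm10275 for Rpl12 (chr10:29698746-29699380), Gm15500 for Rpl5 (chr7:114705217-114706235) and Rpl10-ps3 for Rpl10 (chr9:50344201-50344968), each matching with 100% identity. The genes themselves are Rpl12 (ENSMUSG00000038900, chr2:32961559-32965345), Rpl5 (ENSMUSG00000058558, chr5:107900502-107909005) and Rpl10 (ENSMUSG00000008682, chrX:74270812-74273135). Results are given for the genes by the symbol rule, with the sum over gene and copies beside them where it matters.

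Levels between genes were compared as CPM per kilobase of the longest annotated coding sequence, averaged over the 17 libraries. On this scale the members ran from 63.6 to 3512, with a median of 645, and the middle 50% of genes lay between 467 and 872. Rpl41, which encodes the shortest ribosomal protein, was highest at 3512 CPM per kb, followed by Rplp1 at 1894 and Rplp0 at 1794, both proteins of the stalk that recruits elongation factors. Counts cover whole transcripts, so this scale raises genes whose coding sequence is a small part of the transcript. Rpl41 has 138 coding bases and a median annotated transcript of 526.5 bases, against 951 and 1358 for Rplp0. Ranks by transcript length were not computed. The lowest were Rpl5 at 63.6, Rpl12 at 81.2 and Rpl22l1 at 94.5. With copies included, Rpl5 stood at 734 and Rpl12 at 1098, ranks 39 and 15 of 81, while Rpl22l1 stayed last at 95.2. The 3 lowest families were then the paralogs Rpl22l1, Rpl7l1 at 162 and Rps27l at 206.

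Together the members took 2.82 ± 0.320% of library counts in control (SD, n = 5), 2.63 ± 0.287% in TGFb (n = 4), 2.73 ± 0.141% in CM (n = 4) and 3.49 ± 0.512% with neratinib (n = 4). The 4 neratinib libraries held 3.75, 3.19, 2.95 and 4.07%, in the order PSC4 replicates 1 and 2, PSC5 replicates 1 and 2. The CM libraries in the same order held 2.71, 2.62, 2.66 and 2.94%. Every neratinib library exceeded every CM library, the nearest pair being 2.95 and 2.94%, but PSC5 replicate 1 lay within the control range of 2.46 to 3.08%. CPM and shares are relative to all RNA of a library, so more ribosomal protein mRNA per cell and less of other mRNA cannot be told apart, nor can a change in a fraction of the cells.

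**Figure D1:**
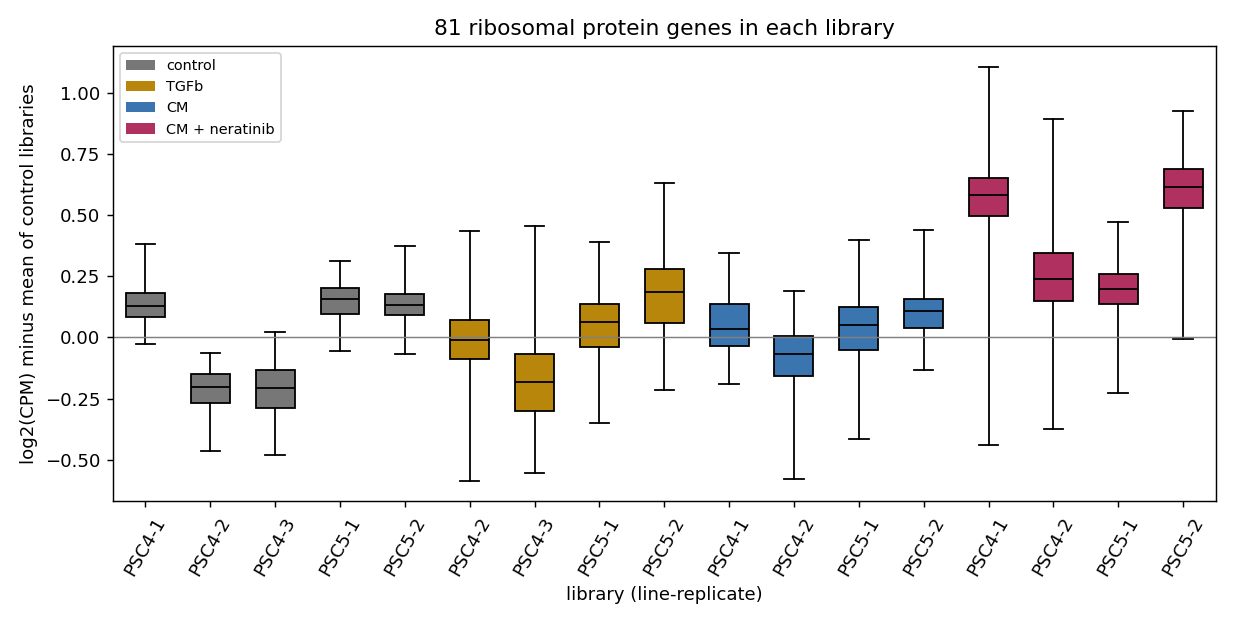
Log2 CPM of the 81 genes in each library minus the mean of the 5 control libraries (boxes, middle 50% of genes; line, median; whiskers, lowest and highest gene), coloured by medium. There, 2 neratinib libraries have medians of 0.58 and 0.62 and the other two 0.24 and 0.20, above the CM medians of -0.07 to 0.11.

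Neratinib in CM was compared with CM alone, the comparison that asks what neratinib adds to conditioned medium. No library had neratinib in control medium, so an effect of neratinib outside CM cannot be read. Of the 81 members, 53 rose and 0 fell (edgeR quasi-likelihood test, Benjamini-Hochberg adjusted p under 0.05 over 13923 genes), while 20.5% of all genes tested were called, 10.8% as higher. The median log2 fold change of the members was 0.39, a 1.31-fold rise, with the middle 50% between 0.31 and 0.45. The median over all genes was 0.00, with the middle 50% between -0.23 and 0.19. The subunits had like shares of calls: 30 of 49 large-subunit genes rose (median 0.37) and 23 of 32 small-subunit genes (median 0.39). In 53 members every neratinib library lay above every CM library, against 9.61% of all genes tested.

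Among libraries of the same line and passage, neratinib exceeded CM in 79 of 81 members in PSC4 replicate 1 (median log2 difference 0.52), in 79 in PSC4 replicate 2 (0.31), in 78 in PSC5 replicate 1 (0.16) and in 79 in PSC5 replicate 2 (0.49). All 4 pairs thus had medians above 0, and PSC5 replicate 1 had the smallest. The share of all genes that were higher in each pair is not reported here, and members of 1 pair of libraries are not replicates. Within a line, the median difference of group means was 0.41 in PSC4 and 0.33 in PSC5. The test of a difference between the lines called 0 members and 0% of all genes (edgeR, with 0 members at unadjusted p under 0.05), but the median standard error of that difference was 0.24.

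The number of calls depended on how the spread was estimated. With only the 8 libraries of both groups fitted, 10 members passed (Rpl7, Rpl10, Rpl13a, Rpl22, Rpl24, Rpl31, Rpl37a, Rps4x, Rps7 and Rps20), all higher. Leaving out 1 library gave 29 without neratinib PSC4 replicate 1 or PSC5 replicate 2, 31 without CM PSC5 replicate 2, and 32 without CM PSC4 replicate 2 or PSC5 replicate 1. Without the PSC4 replicate 1 libraries 44 rose. With line and passage as a block, 73 rose and 0 fell. Shares of all genes called in these other fits are not reported here, so these counts stand without them.

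**Figure D2:**
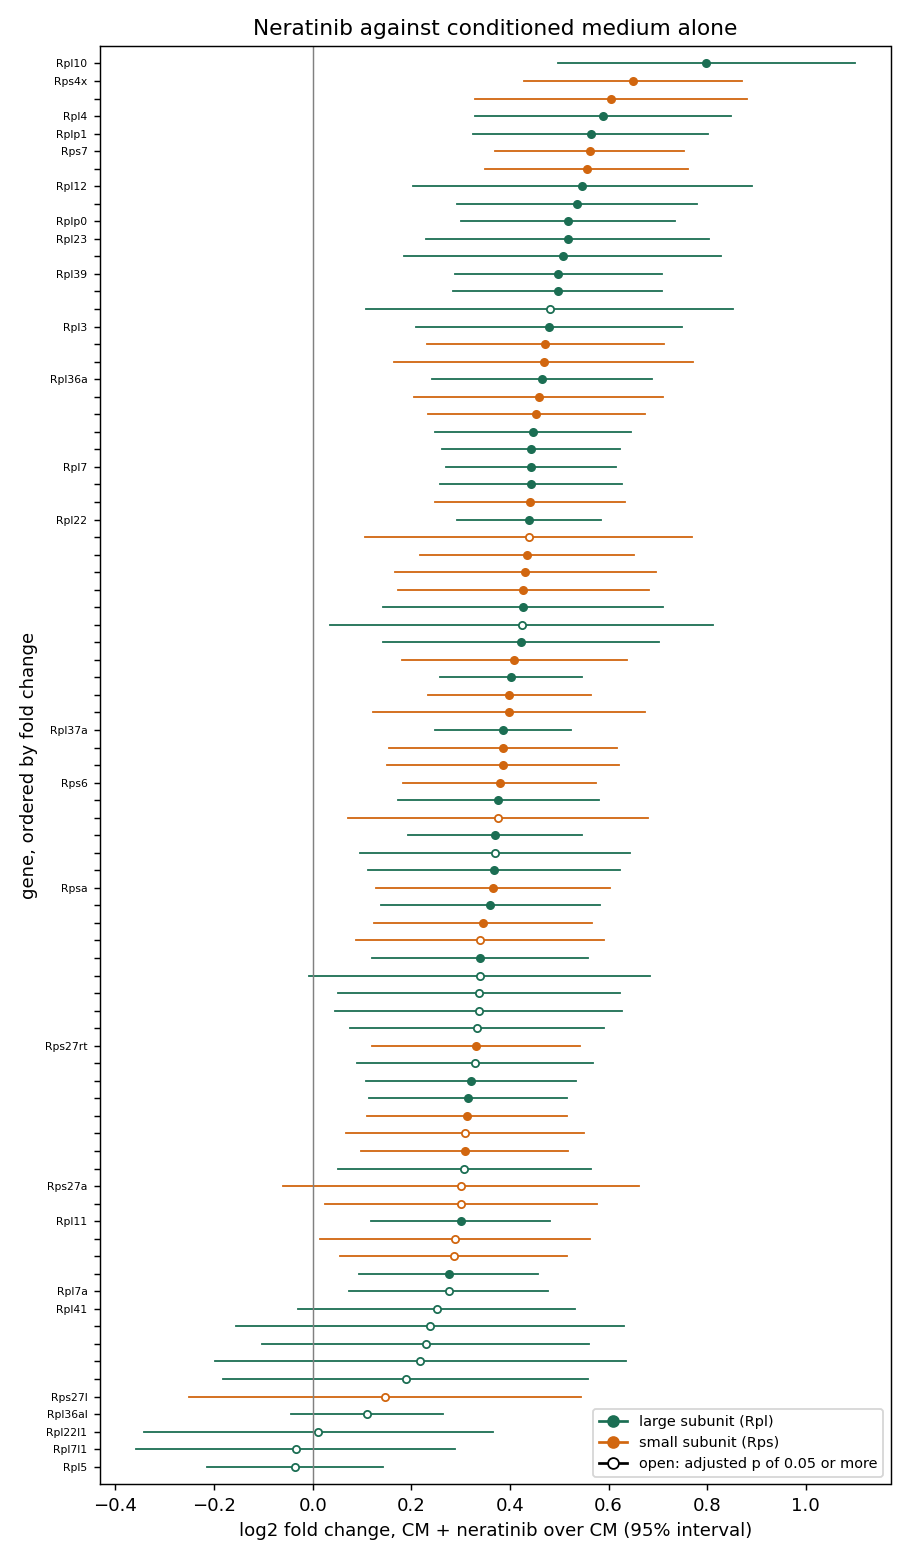
Log2 fold change of each of the 81 genes, neratinib in CM over CM, with its 95% interval from edgeR, ordered by size; filled points have an adjusted p under 0.05, and a selection of genes is labelled. The 53 called genes are all to the right of 0, and Rpl5, Rpl7l1 and Rpl22l1 are at the lower end near 0.

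Among the 5 largest rises were Rpl10, Rps4x, Rpl4 and Rplp1. Rps4x, an X-linked small-subunit protein, measured 642, 711, 660.1 and 664 CPM in CM and 1141, 1037, 841 and 1180.0 CPM with neratinib, in the order PSC4 replicates 1 and 2, PSC5 replicates 1 and 2. All 4 neratinib values lay above all CM values, and above the control values of 722, 599, 609.8, 760.1 and 707 CPM. The log2 fold change was 0.65 ± 0.10 (SE) against CM (adjusted p = 9.8e-04) and 0.63 ± 0.10 against control (adjusted p = 2.0e-04).

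Rpl4, whose long loop lines the tunnel through which the new peptide leaves, measured 718, 724, 724 and 753 CPM in CM and 1234, 975, 855 and 1323 CPM with neratinib. It rose by 0.59 ± 0.12 on the log2 scale (adjusted p = 0.00448), and as in Rps4x, PSC5 replicate 1 had the lowest of the neratinib values.

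The stalk proteins all passed. Rplp0, Rplp1, Rplp2 and Rpl12 form the flexible base and arms that deliver elongation factors, and 4 of 4 rose, with log2 fold changes between 0.37 and 0.56. Of all members 65.4% rose, against 10.8% of all genes tested. Rplp1 measured 569.7, 580.4, 535 and 614 CPM in CM and 927, 784, 663 and 1023 CPM with neratinib, a change of 0.56 ± 0.11 (adjusted p = 0.00371). Rplp0 measured 1396, 1641, 1475 and 1521 CPM in CM and 2227, 2119.9, 1770.4 and 2521 CPM with neratinib, a change of 0.52 ± 0.10 (adjusted p = 0.00360). Copies held few of the counts of either gene, 1895 against 1894 CPM per kb with and without them for Rplp1.

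Other sites of the ribosome gave similar counts. Of 9 proteins of the exit tunnel and its rim, 5 rose (median 0.43), including Rpl39 at 0.50 ± 0.10 (adjusted p = 0.00368) and Rpl22 at 0.44 ± 0.07 (adjusted p = 8.3e-04). Of 3 proteins at the mRNA entry 2 rose (median 0.39), of 6 of the small-subunit head 4 rose (median 0.37), and of 5 of the platform 4 rose (median 0.44). These counts stand beside rises in 65.4% of all members and 10.8% of all genes tested. Differences between sites were not tested. Rpsa, a platform protein also known as the laminin receptor precursor, had 961, 1008, 940.3 and 1054 CPM in CM and 1313, 1209.6, 1024 and 1565 CPM with neratinib. Its change was 0.37 ± 0.11 against CM (adjusted p = 0.0313), and against control it did not pass at 0.22 ± 0.11 (adjusted p = 0.0996). Rps6, the target of the S6 kinases, changed by 0.38 ± 0.09 (adjusted p = 0.0105), and Rpl3, at the peptidyl transferase centre, by 0.48 ± 0.13 (adjusted p = 0.0165). Rps27a, which is made as a fusion with ubiquitin, stood at 0.30 ± 0.17 (adjusted p = 0.223) and did not pass.

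Against CM the paralogs had 4 of the 5 lowest log2 fold changes. Rpl22l1, Rpl7l1, Rps27l and Rpl36al are second genes for proteins of the Rpl22, Rpl7, Rps27 and Rpl36a types, and 0 of these 4 were called against CM. Of all genes tested 20.5% were called in this comparison, so 0 of 4 does not set these paralogs apart from genes at large. Rpl22l1 measured 40.7, 27.8, 31.4 and 37.9 CPM in CM and 31.8, 28.4, 35.7 and 45.3 CPM with neratinib, and the groups overlapped. Its change was 0.01, with a 95% interval of -0.34 to 0.37. Rpl22 itself measured 152, 148, 148 and 163 CPM in CM and 212, 200.4, 187 and 229 CPM with neratinib, with no overlap. Rpl7 rose by 0.44 ± 0.08 (adjusted p = 0.00239), while Rpl7l1 stood at -0.03 with an interval of -0.36 to 0.29. Rpl36a rose by 0.46 ± 0.10 (adjusted p = 0.00704), while Rpl36al stood at 0.11 with an interval of -0.04 to 0.26. Rps27l stood at 0.15 with an interval of -0.25 to 0.54, and Rps27rt rose by 0.33 ± 0.10 (adjusted p = 0.0293). Against control Rpl36al rose with neratinib, by 0.27 ± 0.07 (adjusted p = 0.00576). The difference in response between a gene and its paralog was not tested.

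Rpl5 and Rpl11 bind the 5S RNA, and of the pair only Rpl5 changed its call when copies were added. Rpl11 rose by 0.30 ± 0.09 (adjusted p = 0.0236), from 184, 195, 197 and 199 CPM in CM to 267, 214, 207 and 266 CPM with neratinib. With copies added its change was 0.32 ± 0.10 (adjusted p = 0.0363). Rpl5 measured 57.4, 51.7, 59.6 and 60.1 CPM in CM and 43.1, 58.0, 64.5 and 58.3 CPM with neratinib, and its change was -0.04 (adjusted p = 0.800). Its copy Gm15500, with the same coding sequence, measured 501, 534, 539.8 and 541 CPM in CM and 911, 711, 626 and 888 CPM with neratinib, and rose by 0.57 ± 0.11 (adjusted p = 0.00271). Gene and copies summed gave 559, 586, 599.9 and 601 CPM in CM and 955, 769.7, 691 and 947 CPM with neratinib. The sum changed by 0.52 ± 0.10 (adjusted p = 0.00275), so the value for Rpl5 moved from near 0 to a called rise.

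For Rpl10, which joins the large subunit late in its assembly, the sum moved the other way. The gene alone measured 105, 114, 102 and 114 CPM in CM and 224, 193, 144 and 194 CPM with neratinib, a change of 0.80 ± 0.14 (adjusted p = 0.00196) and the largest of all 81. Rpl10-ps3 rose by 0.42 ± 0.10 (adjusted p = 0.00817), and the sum by 0.49 ± 0.10 (adjusted p = 0.00425). For Rpl12 gene and sum stood close, at 0.55 ± 0.16 and 0.51 ± 0.13. With copies added to all members, 56 of 81 were called against CM, in a fit whose share of all genes called is not reported here. Rpl5, Rpl10a, Rpl18 and Rpl35 were gained and Rpl27a was lost.

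**Figure D3:**
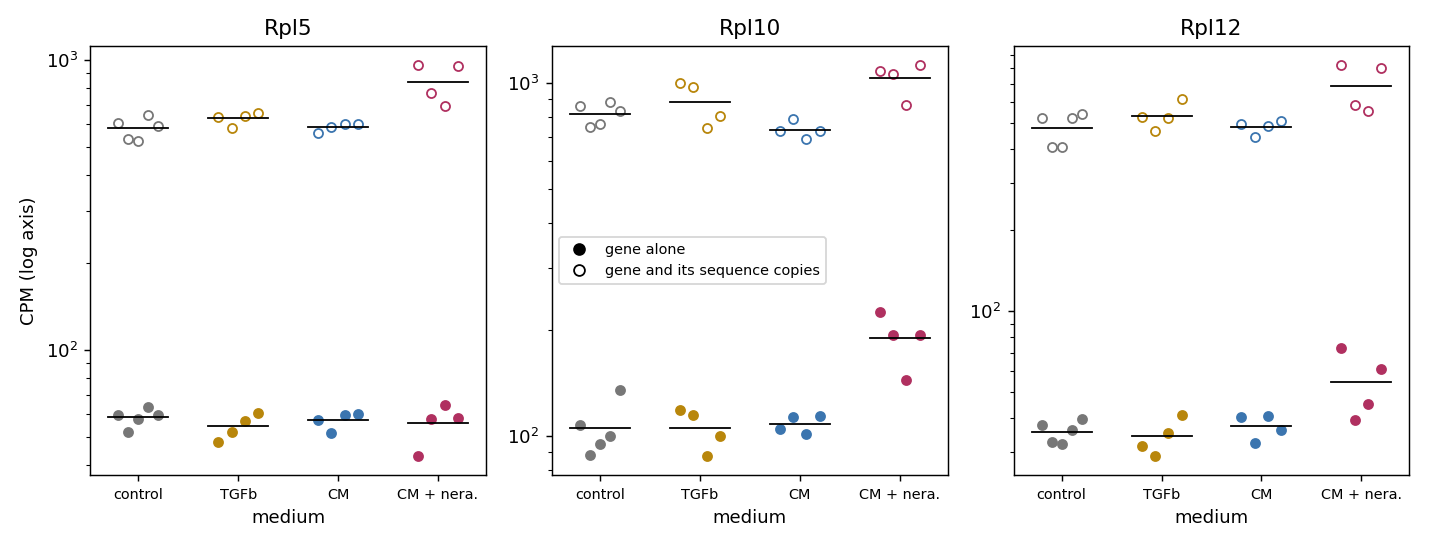
CPM in each library on a log axis for Rpl5, Rpl10 and Rpl12 alone (filled) and with their sequence copies (open), by medium; lines are group means. For Rpl5 the filled neratinib points overlap the other media while the open ones lie above every CM value.

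Against control, neratinib in CM gave 68 members higher and 0 lower, while 43.1% of all genes tested were called, 22.2% as higher. Without the PSC4 replicate 1 libraries 69 rose, in a fit whose share of all genes called is not reported here. The median change of the members was 0.41 (1.32-fold), against 0.00 over all genes. In 33 members every neratinib library lay above every control library, against 14.1% of all genes tested. Among the 5 largest were Rpl10 at 0.85 ± 0.13, Rps4x at 0.63, Rpl12 at 0.61 ± 0.15 and Rpl23 at 0.57 ± 0.13, each with an edgeR adjusted p of 0.00539 or less. Rpl23 measured 351, 256, 248, 367 and 338 CPM in control and 545, 370.1, 419 and 542 CPM with neratinib. The lowest neratinib value, in PSC4 replicate 2, lay just above the highest control value, and control PSC4 replicates 2 and 3 were low. For Rpl10 the sum with copies was 0.34 ± 0.09 (adjusted p = 0.00900), and for Rpl5 it was 0.54 ± 0.09 (adjusted p = 4.5e-04) in place of -0.09.

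The same-passage pairs against control had medians of 0.46 in PSC4 replicate 1, 0.45 in PSC4 replicate 2, 0.48 in PSC5 replicate 2 and 0.04 in PSC5 replicate 1. In that last pair 60 of 81 members were higher, against 78, 80 and 78 in the others, with the shares of all genes not reported here. This comparison and the previous one share the 4 neratinib libraries.

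Epithelial and immune markers were read beside the rise of the members. Krt8, a keratin of epithelial cells, had 0.408, 43.5, 5.62 and 39.3 CPM in CM and 0, 37.8, 9.47 and 94.0 CPM with neratinib. The 2 highest member medians were in neratinib PSC5 replicate 2 (0.62 above the control mean on the log2 scale), which had the highest epithelial sum of all 17 libraries at 322 CPM with 2052 Krt8 counts, and in neratinib PSC4 replicate 1 (0.58), which had the lowest at 9.75 CPM with 0 Krt8 counts. The sum of 8 immune markers was 13.5 CPM in neratinib PSC4 replicate 1, of which Cd68, a lysosomal protein of macrophages, made 12.3, and 2.11 to 3.67 CPM in the other libraries, with Adgre1 and Cd3e at 0 in all 17. Of 11 epithelial markers tested, 8 were higher in CM than in control, 10 with neratinib than in control, and 0 passed between neratinib and CM (edgeR). In the same order, 7.05%, 22.2% and 10.8% of all genes tested were called higher. The part of these markers and of mitochondrial share and library total in the rise of the members was not tested. Other short, abundant genes were examined as a description: 115 protein-coding genes that are no member or copy, under 1000 bases and with at least 100 CPM, had a median change against CM of 0.09, with 18 higher and 10 lower, where 10.8% and 9.63% of all genes tested were called.

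CM alone was compared with control medium. Of 81 members 0 were called, against 14.2% of all genes tested, and 2 had an unadjusted p under 0.05. The count was also 0 without the PSC4 replicate 1 libraries, and DESeq2 called 1, Rpl22. The median change was 0.01, and for 78 members the 95% interval of the log2 change lay within ± 0.5. With line and passage as a block, 2 members fell, Rpl22 (-0.21 ± 0.06, adjusted p = 0.0309) and Rps27l (-0.34 ± 0.09, adjusted p = 0.0189). Rpl22 measured 176, 162, 164, 190.3 and 176 CPM in control and 152, 148, 148 and 163 CPM in CM, and overlapped by 1 library. Rps27l, a p53 target in many cell types, measured 92.1, 51.2, 52.2, 80.5 and 89.3 CPM in control and 67.9, 47.3, 53.1 and 73.4 CPM in CM, in the order PSC4 replicates 1 to 3 then PSC5 for control. Its PSC4 replicates 2 and 3 were low in control, and each CM library lay below the control library of its passage.

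The sign of the difference varied between passages. In CM the member medians against the same-passage control were -0.09 and 0.14 in PSC4 replicates 1 and 2, and -0.10 and -0.03 in PSC5. The test of the difference between lines called 0 members (edgeR, 0 at unadjusted p under 0.05).

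TGFb against control called few members. Of 81, 2 rose and 1 fell, against 40.2% of all genes tested, and 8 had an unadjusted p under 0.05. Without the PSC4 replicate 1 libraries 5 rose and 0 fell, in a fit whose share of all genes called is not reported here. The median change was -0.02, the same as over all genes, and 78 members had an interval within ± 0.5. Rpl41 measured 474, 364, 349, 441 and 480.2 CPM in control and 565, 443, 549 and 648 CPM in TGFb, the latter in the order PSC4 replicates 2 and 3, PSC5 replicates 1 and 2. The groups overlapped through TGFb PSC4 replicate 3, but that library lay above the control of its own passage, as did the other 3. Its change was 0.37 ± 0.12 (adjusted p = 0.0270), and 0.44 ± 0.06 with the block (adjusted p = 7.1e-05). Without the block, the call was lost when control PSC4 replicate 2 or 3 or control PSC5 replicate 1 was left out. It was also lost without TGFb PSC4 replicate 2 or TGFb PSC5 replicate 2.

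Rpl36al measured 65.8, 56.5, 59.3, 66.1 and 64.6 CPM in control and 81.1, 85.6, 68.0 and 72.9 CPM in TGFb, with no overlap, and rose by 0.30 ± 0.07 (adjusted p = 0.00262). Its parent type Rpl36a stood at -0.09 ± 0.10 (adjusted p = 0.494). Rpl37a, a zinc-binding large-subunit protein, measured 212, 189, 193, 208 and 189 CPM in control and 187, 169, 175 and 171 CPM in TGFb, without overlap. It fell, with a log2 change of -0.17 ± 0.06 (adjusted p = 0.0404). In all, 1 member lay wholly above control in TGFb and 2 wholly below, against 16.3% of all genes tested in each direction. The Rpl37a call was lost with DESeq2 size factors, without the low-count filter and with only the groups compared. Several fits that left out 1 library lost it too.

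With the block, 13 members passed in TGFb, 7 higher (among them Rpl13a, Rpl35, Rpl36al, Rpl41, Rps12 and Rps25) and 6 lower (Rpl21, Rpl22l1, Rpl37a, Rps27l, Rps27rt, Rps28). The share of all genes called with the block is not reported here. Rps27l stood at -0.39 ± 0.18 without the block and -0.26 ± 0.09 with it (adjusted p = 0.0282). Rps27, under the count minimum, measured 3.10, 4.72, 1.94, 3.59 and 5.28 CPM in control and 4.70, 14.8, 5.80 and 6.39 CPM in TGFb, where PSC4 replicate 3 was far above the rest. Its change was 1.05 ± 0.38 (adjusted p = 0.0396), opposite in sign to the -0.25 ± 0.09 of Rps27rt (adjusted p = 0.0502), with which it shares its coding sequence. Leaving out 1 library gave 6 calls without control PSC4 replicate 2, and 1 without control PSC5 replicate 1 or TGFb PSC5 replicate 2. CM against TGFb called 0 members, against 35.3% of all genes tested, with 2 at unadjusted p under 0.05. It called 1 without the PSC4 replicate 1 libraries, and DESeq2 called 1, Rps29. With the block 7 were lower in CM (Rpl13a, Rpl41, Rps12, Rps25, Rps26, Rps27a, Rps29), of which Rpl41 changed most, by -0.42 ± 0.06 (adjusted p = 2.5e-04).

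Genes that work with the ribosome were followed as lists. A list of 3 ribosomal proteins under other names included Fau and Rack1, and against CM 2 of 3 rose with neratinib. Of all genes tested 10.8% were called higher. Fau rose by 0.34 ± 0.09 (adjusted p = 0.0141). Rack1, with 670.0, 536, 684 and 688 CPM in CM and 1108, 668, 765 and 1129.8 CPM with neratinib, stood at 0.52 ± 0.18 and did not pass (adjusted p = 0.0558). Against control, 3 of 3 rose, where 22.2% of all genes tested were called higher.

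Of 22 translation factors whose mRNAs are of the TOP type, 12 rose and 0 fell against CM (median 0.35), and 13 rose and 0 fell against control. Of all genes tested 10.8% were called higher against CM and 22.2% against control. Pabpc1, the poly(A) binding protein, led with 1045, 1139, 1195 and 1116 CPM in CM and 2128, 1589, 1396 and 1985 CPM with neratinib, a change of 0.66 ± 0.15 (adjusted p = 0.00781). Eef1a1, which brings aminoacyl-tRNA to the ribosome, changed by 0.62 ± 0.12 (adjusted p = 0.00388). Eef2, the translocase, changed by 0.57 ± 0.12 (adjusted p = 0.00536), and Tpt1 by 0.59 ± 0.11 (adjusted p = 0.00293). In TGFb 5 of the 22 rose and 0 fell, where 19.7% of all genes tested were called higher and 20.5% lower, so the share of rises was near that of all genes. In CM against control 0 were called.

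Ribosome biogenesis genes, which act in the nucleolus on ribosomal RNA and assembly, numbered 51. Against CM 3 rose and 0 fell (median 0.22), a share of rises below the 10.8% of all genes, and against control 22 rose and 1 fell (median 0.31), where 22.2% of all genes were called higher and 20.9% lower. The difference between these counts was not tested. Fbl stood at 0.14 ± 0.17 (adjusted p = 0.600), Ncl at 0.28 ± 0.14 (adjusted p = 0.170) and Npm1 at 0.36 ± 0.20 (adjusted p = 0.208) against CM, and none of them passed. Mitochondrial ribosomal proteins, which build a separate ribosome, had 3 higher and 2 lower of 78 against CM (median 0.07) and 15 higher and 4 lower against control (median 0.12), each share below that of all genes tested.

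**Figure D4:**
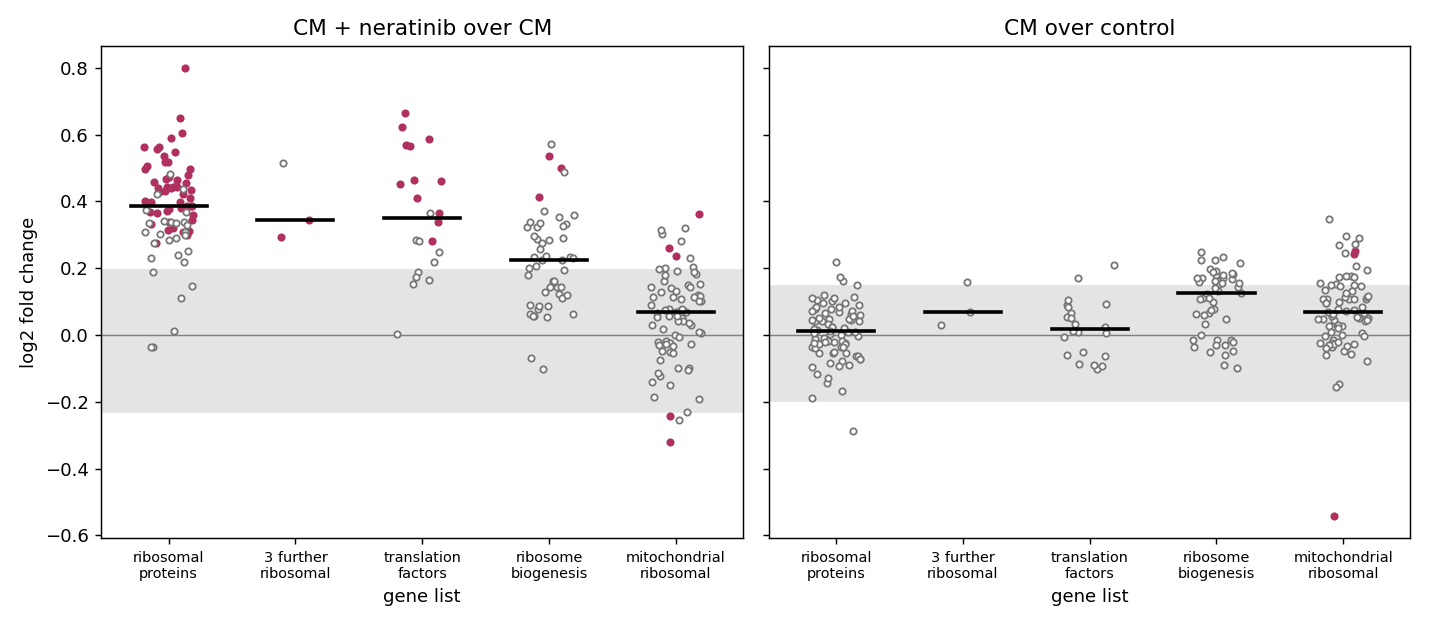
Log2 fold changes of the 81 ribosomal protein genes, 3 further ribosomal proteins, 22 translation factors, 51 biogenesis genes and 78 mitochondrial ribosomal proteins in 2 comparisons (filled, adjusted p under 0.05; black bar, list median; grey band, middle 50% of all genes tested). With neratinib over CM the bars run from 0.39 for ribosomal proteins to 0.07 for the mitochondrial ones, and in CM over control the first bar is at 0.01.

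Of 16 growth regulators, 2 rose and 4 fell against CM, where 10.8% of all genes tested were called higher and 9.63% lower. The share of rises was near that of all genes, and the list's median was -0.03. Rheb and Eif4ebp1 rose, the latter by 1.33 on the log2 scale, and Tsc1, Tsc2, Rps6kb1 and Mycn fell. Rheb activates mTORC1, Tsc1 and Tsc2 restrain Rheb, Rps6kb1 is an S6 kinase and Eif4ebp1 a repressor of cap-dependent translation. Myc stood at 0.19 ± 0.18 (adjusted p = 0.498), and Larp1, which binds TOP mRNAs, at 0.33 ± 0.14 (adjusted p = 0.111). Against control Larp1 rose by 0.52 ± 0.14 (adjusted p = 0.00702). Of 14 p53 targets, 1 rose (Sesn2) and 2 fell (Btg2, Sesn1) with neratinib against CM. Against control, 1 rose and 6 fell with neratinib, 0 rose and 4 fell in CM, and 0 rose and 8 fell in TGFb, where 20.9%, 7.14% and 20.5% of all genes tested were called lower. Mdm2 stood at 0.17 ± 0.22 against CM (adjusted p = 0.625).

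The start of each gene was read for the pyrimidine run of the TOP type. RefSeq start sites on GRCm38.p6 were found for 61 of the 81 members, and where a gene had several the most upstream was taken. In the 30 bases around the start (15 before, 15 from the first transcribed base on), a run of at least 8 C or T on the transcribed strand was present in 24 of 61 members (39.3%), against 11.8% of 27025 genes in the table. It was present in 35.9% of the 39 members with a start that rose against CM and in 45.5% of the 22 that did not pass. Calls were taken from the fit without the block, and the difference was not tested. A run anywhere in the window was counted, and some lay wholly before the first transcribed base, as in Rpl4 and Rps27l. Such a run would not be part of an mRNA that begins at the annotated start. The windows of the 5 largest changes with a start site, followed by the 5 smallest, are given for comparison, with the longest run in capitals.

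Rpl10 (chrX:74270801-74270830, plus strand): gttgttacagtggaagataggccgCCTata
Rps4x (chrX:102189377-102189406, minus strand): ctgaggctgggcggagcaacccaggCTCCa
Rpl4 (chr9:64173372-64173401, plus strand): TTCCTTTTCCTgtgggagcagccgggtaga
Rps7 (chr12:28635939-28635968, minus strand): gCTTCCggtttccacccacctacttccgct
Rpl12 (chr2:32961697-32961726, plus strand): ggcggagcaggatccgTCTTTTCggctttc
Rps27l (chr9:66946071-66946100, plus strand): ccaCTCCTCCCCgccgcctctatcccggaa
Rpl36al (chr12:69184053-69184082, minus strand): caTTCCCgtcgctcaggttcagttccgact
Rpl22l1 (chr3:28805493-28805522, plus strand): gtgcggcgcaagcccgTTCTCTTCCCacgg
Rpl7l1 (chr17:46782642-46782671, minus strand): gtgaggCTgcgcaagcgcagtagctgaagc
Rpl5 (chr5:107900513-107900542, plus strand): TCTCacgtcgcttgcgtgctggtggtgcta

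The longest run was 3 bases in Rpl10 and 4 in Rps4x, 9 in Rps27l and 10 in Rpl22l1. That of Rps27l lay before the annotated start, the others after it. Rpl7a, with the longest run of all members at 21 bases, changed by 0.28 and did not pass (edgeR adjusted p = 0.0517). It was called higher by the DESeq2 test and in the edgeR fit without neratinib PSC4 replicate 2. Annotated starts can lie several bases from the starts used in these cells, so these letters describe the annotation.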

How the data were processed

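RNA libraries of 17 stellate cell cultures were analysed, grouped by the labels. Per the labels' protocols, cells were lysed in TRIzol, RNA was purified on columns and mRNA libraries were made. The deposited values are the authors' expected counts, not scaled, listed by Ensembl gene ID for each library. Salmon 1.4.0, DESeq 2 and the builds GRCm38 and mm10 are named in the submitters' processing notes, with no role or order. Of values above 0, 74.8% were not whole, and all were rounded, which moved a library total by at most 300.9 counts. Salmon divides reads between transcripts of like sequence, so single genes with copies are uncertain.

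Symbols and positions came from GENCODE M21 (GRCm38) by gene ID (35437 of 35896 matched), and copies from blastn 2.17.0 of coding sequences against all annotated transcripts. Genes were kept by filterByExpr by group (13923 left, all 81 members among them). Counts were fitted in edgeR 4.0.16 (TMM, quasi-likelihood) with group and cell line over all 17 libraries, so the groups share 1 spread. Genes were called at a Benjamini-Hochberg adjusted p under 0.05 over all genes. On simulated counts with 200 genes changed by a log2 of 1, for TGFb against control, 93.5% were recovered, with 10 false calls. Errors of fold changes are SE, others SD.

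Libraries of the same line and number share a passage label. Their deviations from the group means correlated above 0.1 in 22 of 22 pairs (median 0.30, lowest 0.12), so the numbers were taken to pair the libraries. Between media, 14 of 32 pairs of the same line but another number passed 0.1, and 14 of 54 pairs of different lines. Counts and errors given without mention of the block come from the fit with group and cell line, which leaves this pairing out. Blocked counts are given for each comparison, and blocked values for some genes only.

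Members and lists were chosen with earlier results of these data known. Named genes were the 5 largest rises and falls called in each comparison, preset members, paralogs and list genes, and the 3 highest and lowest by level. Rps12, Rps25 and other members named only as calls of a setting, and Rpl7a and the genes named in list counts, were chosen after their values were seen. Alternatives were other scalings, filters, DESeq2 1.42.0, other designs, added copy counts and leaving out each library. Adding all sequence copies was chosen after seeing the data. Intervals of fold changes are 95% and come from the fit. The floor of 3 counts (0.102 to 0.135 CPM) covers counting error only, as the labels name no molecular identifiers. Start sequences are from RefSeq. Protein sequences were not used here, and a few genes are not reported here.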

Additional observations from a re-analysis of the deposited data

Results flagged for a closer look

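In 100 sets of values (24 named genes and the members' share of counts, in 4 groups of 4 or 5 libraries), 3 held a library far from the others of its group, and chance alone marks about 1 in 20 groups. All were in CM. Rpl23 measured 279 CPM in CM PSC4 replicate 2, where the other 3 lay between 339 and 350. Rpl7l1 measured 98.0 CPM in the same library, where the others lay between 138 and 142. Rpl3 measured 657 CPM in CM PSC5 replicate 2, where the others lay between 611 and 619. PSC4 replicate 2 was also low in control for Rpl23 (256 CPM) and Rpl7l1 (92.6 CPM).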

How the results depend on the processing

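The replicate block (line and passage) gave 13 calls in TGFb against control, 2 in CM against control and 7 in CM against TGFb, and 76 and 73 in neratinib against control and CM, all higher. Fitting only the groups compared gave 10 in neratinib against CM and 1 in CM against control. Upper-quartile scaling gave 6 in TGFb and 1 in CM against control, and the DESeq2 test gave 1 in CM against control and 1 in CM against TGFb. Counting PSC4 replicate 1 with PSC5 gave 8 in TGFb, 1 in CM and 2 in CM against TGFb, and removing those libraries gave 5 in TGFb and 1 in CM against TGFb. The cause was not tested. Leaving out each library gave 29 to 69 in neratinib against CM, 47 to 76 against control, 1 to 6 in TGFb and 0 in the other 2. The tests of line differences gave 0 in all settings. Shares of all genes called in each of these settings are not reported here.

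For single members 44 results were recomputed, 728 values in all, of which 676 kept direction and call, 31 lost the call, 4 gained it and 17 changed sign. Every sign change was in Rpl5, Rpl7l1 or Rpl22l1, which were not called. Rpl5 turned to 0.52 against CM and 0.54 against control with copies added, and to 0.0799 and 0.019 with PSC4 replicate 1 libraries removed. Rpl22l1 against CM was -0.0028 with upper-quartile scaling. Leaving out 1 library gave -0.0962 to 0.0524 for Rpl5 against CM and -0.15 to 0.0030 against control, -0.20 to 0.0818 and -0.0319 to 0.24 for Rpl7l1, and -0.094 to 0.19 and -0.19 to 0.0019 for Rpl22l1. Adding copies raised the members' share from 2.82 to 3.24% in control, 2.63 to 3.05% in TGFb, 2.73 to 3.13% in CM and 3.49 to 4.02% with neratinib. Each member had at least 646 counts in every library, and the effect of depth on the calls was not tested.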
